A study of Homo sapiens with 6 samples.

Results

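The genes described here are 10 genes linked to low oxygen and to secreted stanniocalcins: STC1, STC2, CA9, CA12, VEGFA, ADM, ANGPTL4, NDRG1, HIF1A and EGLN3. They were taken by symbol from a table of 28395 genes, and all 10 were found. The set was built around STC1, which had the largest fall of this same comparison, so the values of the 10 genes, and their calls in the fit over all genes, are given as a description with no p-value. RNA was sequenced from 6 libraries of HCC827, a human lung adenocarcinoma line whose growth depends on EGFR with an activating deletion. The cells had been kept for 24 h either in DMSO, the vehicle (3 libraries), or in 1 μM erlotinib, an inhibitor of the EGFR kinase (3 libraries), and all libraries came from this 1 line. Nothing in the labels says whether the libraries of a group came from separate cultures, so each p-value measures the spread between these samples, which may be technical. The comparison asks which transcripts change when EGFR signaling is blocked.

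The DMSO libraries held 20858083, 24641819 and 21172884 reads on genes and the erlotinib libraries 21944007, 20760204 and 21678395. Values are given as signal, which is the number of reads divided by 1 size factor per library (0.882 to 1.08), as mean ± SD (n = 3 in each group). DMSO library 2 stood apart from the other DMSO libraries: the chi-square over degrees of freedom of its reads was 24.3 against library 1 and 15.2 against library 3, while libraries 1 and 3 gave 7.96 and the erlotinib pairs 4.13 to 6.08. Without it the log2 fold changes of the 8 genes that could be tested were -5.35 for STC1, -0.86 for STC2, -1.17 for VEGFA, -1.74 for ADM, -2.68 for ANGPTL4, -0.02 for NDRG1, -1.01 for HIF1A and -1.38 for EGLN3. Calls of other genes that change without it are given beside them. Log2 fold changes compare erlotinib with DMSO on log2(signal + 1), which understates the change of low genes. All 7 epithelial markers checked were well expressed, with KRT7 the most abundant, but their summed signal was 257616 to 289678 in DMSO and 195057 to 200199 in erlotinib. The keratins KRT7, KRT8, KRT18 and KRT19 were called lower (limma, log2 fold changes -0.63, -0.83, -1.25 and -0.39), and NKX2-1, the lung lineage factor, higher (3002 and 8644). The adhesion proteins EPCAM (9852 and 9485) and CDH1 (27824 and 30609) passed in neither direction. Of the markers of other cell types, 5 of 6 for fibroblasts, 4 of 6 for endothelium and 5 of 6 for immune cells had a mean signal under 10. CLDN5, an endothelial tight junction gene, and MS4A1, a B cell marker, were listed at 0 throughout. The summed fibroblast markers were 73.7 to 109 in DMSO and 215 to 260 in erlotinib, most of it COL1A1, and the summed endothelial markers 15.8 to 34.0 and 46.5 to 58.1. Of the endothelial markers, PECAM1 had means of 15.7 and 10.4 and VWF, which was called higher, 3.94 and 27.4. CD68, a lysosomal protein used as a macrophage marker, made up most of the immune sum of 2777 to 3156 in DMSO and 3238 to 3537 in erlotinib. The part of these markers in the results was not tested.

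Cells answer low oxygen through the hypoxia-inducible factors (HIFs), each a pair of an oxygen-labile alpha subunit (HIF1A or EPAS1) and the stable subunit ARNT. When oxygen is present, prolyl hydroxylases of the EGLN family mark the alpha subunit, and the VHL ubiquitin ligase sends it for destruction. When oxygen is scarce the pair persists, binds a short core word in DNA and raises genes for glycolysis, pH control, vessel growth and its own hydroxylase EGLN3. Growth factor signaling through PI3K, mTOR and ERK is also known to raise HIF1A production in tumor cells at normal oxygen.

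A gene was tested when its signal averaged 10 or more over the libraries, which left 14215. Of these, 35.4% were called lower with erlotinib, 35.3% higher (70.7% in either direction) and 29.3% in neither at an adjusted p under 0.05 (limma, Benjamini-Hochberg). With libraries scaled to their total count, 3955 were lower and 6156 higher. Of the 10 genes, 8 reached this mean. Among these 8, 7 were lower past the threshold, with every erlotinib library below every DMSO library, and 1 (NDRG1) was on neither side. The share of all tested genes with every erlotinib library below every DMSO library was 36.9%, and the groups did not overlap in either direction for 73.6%. Since the set was chosen on this contrast, nothing is read from these counts. By size, 6 of the 8 were lower by at least 1 on the log2 scale, a range that held 10.8% of all tested genes. Under scaling to the total count, which put HIF1A at -0.87 and VEGFA at -0.97, it was 4 of the 8 and 8.08% of all. The median log2 fold change was -1.25 over the 8 genes and 0.02 over all tested genes. CA9 and CA12 were too low to be tested. In bulk RNA, fewer cells that express a gene and less of its RNA in each cell cannot be told apart.

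**Figure D1:**
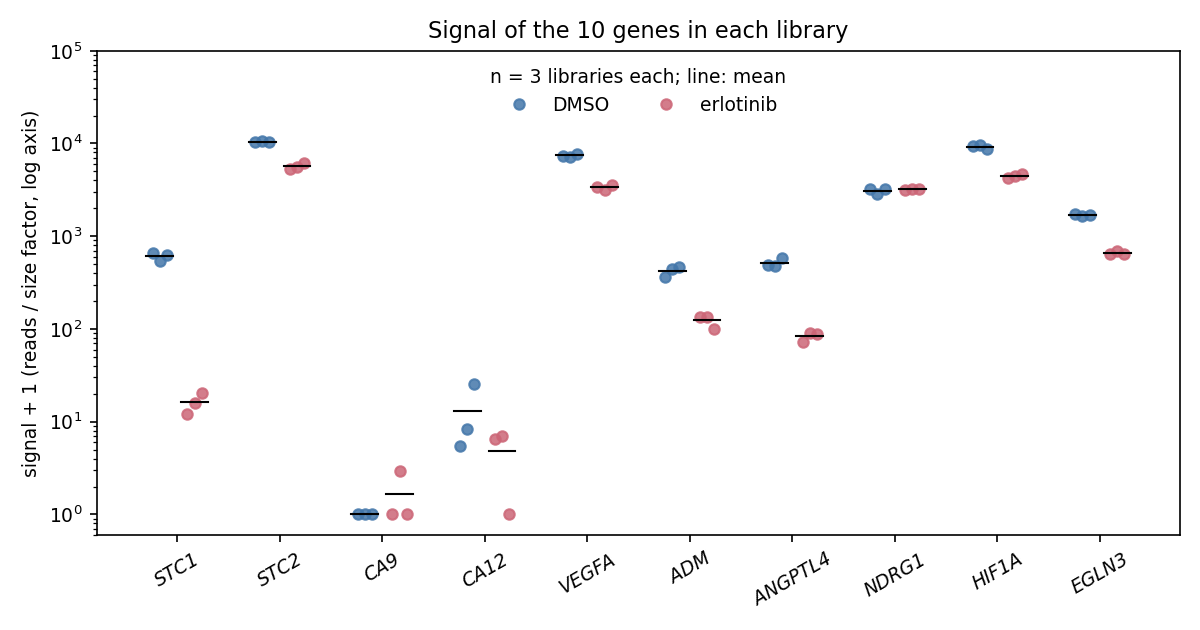
Signal + 1 of the 10 genes in each library on a log axis, with DMSO in blue and erlotinib in red (n = 3 libraries each) and a line at each mean. STC1 is the farthest apart, NDRG1 overlaps, and CA9 and CA12 lie near the bottom of the scale.

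The stanniocalcins are secreted glycoproteins, first known as calcium-regulating hormones of fish, and act on calcium, phosphate and stress responses in mammals. STC1 (Entrez 6781; GRCh38, chromosome 8, 23841929 to 23854806) had a signal of 651, 544 and 634 in the DMSO libraries and 11.1, 14.8 and 19.7 in the erlotinib libraries. The groups were far apart, and no erlotinib library came near any DMSO library. In reads, this is 574, 586 and 592 against 12, 15 and 21, so that the erlotinib values rest on few reads, each still above the 3 reads used as the floor of detection. The mean was 610 ± 57.4 in DMSO and 15.2 ± 4.30 in erlotinib, which is 2.49% of the DMSO level and a log2 fold change of -5.27 (SE 0.22). It ranked 1 of 14215 tested genes by fall, which is how the set was chosen, and the gene just outside in that order was CCAT1 at -5.14.

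STC2 (Entrez 8614; chromosome 5, 173314723 to 173328414), the paralog of STC1 and a target of the unfolded protein response as well as of HIF, was far more abundant. Its signal was 10338, 10526 and 10494 in DMSO and 5367, 5614 and 6237 in erlotinib. The DMSO libraries lay close together and well above the erlotinib libraries. The mean of 5739 ± 448 in erlotinib was 54.9% of the 10453 ± 101 in DMSO (log2 fold change -0.87, SE 0.07). Of the tested genes, 1992 had a larger fall than STC2, so the paralogs stood at very different places in the order of falls.

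Of the secreted factors that act on vessels, VEGFA, the main growth factor for endothelium, had the highest signal (Entrez 7422; chromosome 6, 43770211 to 43786487). It was 7411, 7202 and 7785 in DMSO and 3396, 3179 and 3552 in erlotinib. No library of one group came near the other group. The erlotinib mean of 3376 ± 188 was 45.2% of the DMSO mean of 7466 ± 296 (log2 fold change -1.15, SE 0.07), and 8.70% of tested genes fell further. Other ligands and receptors of the VEGF and angiopoietin families were mostly low: 8 of 12 were under the mean of 10 and not tested. Among them ANGPT2 had reads in every library (mean signal 8.12), KDR and FLT4 had few, and FLT1 was listed at 0 in all 6. MCPH1, with a mean signal of 557, overlaps 100% of the ANGPT2 span on the opposite strand. The strand of counting was not given, so the ANGPT2 reads cannot be assigned with certainty. Of the 4 that could be tested, VEGFC, a ligand for lymphatic endothelium, fell from 481 to 346 (log2 fold change -0.46, limma adjusted p = 0.00184). VEGFB, a ligand of FLT1, rose from 831 to 1023 (0.30, limma adjusted p = 0.00869), a call that was lost without erlotinib library 2 (adjusted p = 0.0531). The co-receptor NRP1 rose from 7833 to 9516 (0.28, limma adjusted p = 4.29e-04). The co-receptor NRP2 was at 3707 and 3649 (-0.02, limma adjusted p = 0.759; 0.16 under scaling to the total count).

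ADM encodes adrenomedullin, a vasodilator peptide that HIF induces in many tumor lines (Entrez 133; chromosome 11, 10305073 to 10307397). Its signal was 360, 444 and 462 in DMSO and 134, 135 and 99.2 in erlotinib. Each erlotinib library lay under the lowest DMSO library by more than the spread within either group. The erlotinib level of 123 ± 20.2 was 29.0% of the 422 ± 54.8 in DMSO (log2 fold change -1.78, SE 0.16). Of the 6 companions of ADM, 3 were tested and all 3 were called higher, where 35.3% of all tested genes were. ADM2, a related peptide also called intermedin, had 121, 107 and 123 in DMSO and 395, 447 and 424 in erlotinib (log2 fold change 1.84, SE 0.14, limma adjusted p = 2.53e-10). Its GENCODE span overlaps SBF1 on the opposite strand over 48.6% of its length, the strand of counting was not given in the sources used here, and SBF1 itself went from 1762 to 2192. PAM, the enzyme that amidates such peptides into their active form, rose from 2012 to 3113 (0.63, limma adjusted p = 4.60e-08). RAMP1, a receptor subunit of this peptide family, rose from 1928 to 3087 (0.68, limma adjusted p = 3.42e-08). CALCRL, RAMP2 and RAMP3, which form the adrenomedullin receptors, were too low to test.

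ANGPTL4, a secreted inhibitor of lipoprotein lipase that responds to both HIF and PPAR factors, had the largest fold change of the set after STC1 (Entrez 51129; chromosome 19, 8364155 to 8374370). Its signal was 493, 475 and 575 in DMSO and 71.1, 89.1 and 88.0 in erlotinib. The highest erlotinib library was far under the lowest DMSO library. The means were 515 ± 52.9 and 82.7 ± 10.1, a ratio of 6.22 (log2 fold change -2.63, SE 0.15), and 148 genes or 1.04% of those tested fell further. The rest of this family gave little to compare, since 8 of 9 companions were under the mean of 10 and LPL, the lipase that ANGPTL4 inhibits, was listed at 0 in all 6 libraries. ANGPTL6, the 1 companion tested, had a log2 fold change of 0.13 (limma adjusted p = 0.839), and -0.13 without erlotinib library 3.

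CA9 and CA12 encode carbonic anhydrases that face the outside of the cell and help it shed acid, and CA9 is among the most used markers of hypoxic tumor tissue. CA9 (Entrez 768; chromosome 9, 35673928 to 35681159) was listed at 0 in 5 libraries and had 2 reads (signal 1.98) in erlotinib library 2. CA12 (Entrez 771; chromosome 15, 63321378 to 63381846) had 4, 8 and 23 reads in DMSO and 6, 6 and 0 in erlotinib, or a signal of 4.54, 7.43 and 24.6 against 5.54, 5.94 and 0. The CA12 groups overlapped, and its mean of 12.2 ± 10.9 in DMSO rested on DMSO library 3. A difference in either gene was not detectable at this depth, where 3 reads stand for 0.122 to 0.145 CPM (reads scaled to a library of fixed size). Most other carbonic anhydrases were also low, and 9 of 13 were under the mean of 10. Of the 4 tested, 3 rose, where 35.3% of all tested genes rose. CA11, a family member without catalytic activity, went from 35.8 ± 8.21 to 231 ± 49.6 (log2 fold change 2.66, limma adjusted p = 1.92e-09). SEC1P, with a mean signal of 8.29, overlaps 98.5% of the CA11 span on the opposite strand, and the strand of counting was not given. The mitochondrial enzyme CA5B went from 108 to 236 (1.12, limma adjusted p = 3.52e-06), although it shares sequence with its pseudogene CA5BP1 and the reads of the pair could be split between them. CA14, a membrane enzyme, rose from 27.0 to 63.2 (1.31, limma adjusted p = 0.00501), and CA13 was at 11.1 and 18.6 (1.07, limma adjusted p = 0.129; 1.66 and adjusted p = 0.0236 without DMSO library 2, 0.31 and 0.600 without DMSO library 1).

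The promoters of these genes can be read for the HIF core word. The 4 below are those of the secreted genes with a match and of CA9. CA12, the other carbonic anhydrase of the set, and HIF1A also had a match and are not printed. Windows of 250 bases before and 50 after the start came from RefSeq (GRCh38.p14), and 7 of the 10 genes had 8 in all, as HIF1A has a pair of starts. STC1, VEGFA and NDRG1 had none in the table. The words searched were ACGTG and GCGTG, or CACGT and CACGC where they lie on the opposite strand, and CACGTG holds both ACGTG and CACGT. Either word was found in 6 of the 8 windows (STC2, CA9, ADM, CA12, ANGPTL4 and 1 of those of HIF1A, not the other of HIF1A nor EGLN3) and in 48.4% of all 35116 promoters. ACGTG on either strand was found in 2 of the 8 (CA9 and ANGPTL4) and in 21.4% of all promoters. A match is a description of letters and not a binding site. The 250 bases before the start are printed 5′ to 3′ on the strand of the gene, with the words in capitals: STC2 at chr5:173328415-173328664 (minus strand), CA9 at chr9:35673678-35673927 (plus), ADM at chr11:10304823-10305072 (plus) and ANGPTL4 at chr19:8363905-8364154 (plus).
STC2: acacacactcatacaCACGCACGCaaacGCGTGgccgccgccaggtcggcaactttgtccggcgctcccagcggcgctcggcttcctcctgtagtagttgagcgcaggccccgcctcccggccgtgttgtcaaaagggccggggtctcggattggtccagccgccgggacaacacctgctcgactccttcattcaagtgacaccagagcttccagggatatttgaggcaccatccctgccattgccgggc
CA9: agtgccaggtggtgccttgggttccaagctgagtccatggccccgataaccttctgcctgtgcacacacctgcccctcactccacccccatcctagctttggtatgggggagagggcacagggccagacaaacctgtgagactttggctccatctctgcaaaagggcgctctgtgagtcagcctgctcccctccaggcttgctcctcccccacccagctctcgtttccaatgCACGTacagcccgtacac
ADM: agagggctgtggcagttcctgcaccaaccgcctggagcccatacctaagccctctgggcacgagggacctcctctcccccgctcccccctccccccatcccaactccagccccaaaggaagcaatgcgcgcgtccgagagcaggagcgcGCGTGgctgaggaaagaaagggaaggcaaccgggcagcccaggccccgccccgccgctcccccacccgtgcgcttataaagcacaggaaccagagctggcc
ANGPTL4: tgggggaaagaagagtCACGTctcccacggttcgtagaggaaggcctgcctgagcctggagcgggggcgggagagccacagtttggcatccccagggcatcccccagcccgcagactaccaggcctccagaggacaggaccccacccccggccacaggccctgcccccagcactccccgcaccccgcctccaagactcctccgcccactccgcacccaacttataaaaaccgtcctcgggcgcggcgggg
The word of CA9 begins 18 bases before the start and is CACGT. That of ADM begins 101 bases before it and that of ANGPTL4 234 bases before it. STC2 holds 3 words, which begin 235, 231 and 222 bases before the start and so lie next to each other. The gene with the word nearest to its start, CA9, was the one without reads in 5 of 6 libraries.

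NDRG1, a cytoplasmic stress protein that rises under hypoxia and iron loss and is phosphorylated by SGK1, did not share the direction of the other tested genes (Entrez 10397; chromosome 8, 133237175 to 133297252). Its signal was 3247, 2872 and 3217 in DMSO and 3132, 3229 and 3212 in erlotinib. All erlotinib values lay within the range of the DMSO values. The means were 3112 ± 208 and 3191 ± 51.8 (log2 fold change 0.04, SE 0.07). Under scaling to the total count it was at 0.22 and was called higher, where the median of all tested genes was 0.19. Without DMSO library 2 it was at -0.02. In its family, NDRG4 rose from 499 ± 9.80 to 2740 ± 57.5 (2.45, limma adjusted p = 2.65e-16). The kinase SGK1 rose from 526 to 973 (0.89, limma adjusted p = 3.08e-08). NDRG3 had a log2 fold change of 0.10 (limma adjusted p = 0.282), passing as higher under scaling to the total count, and the kinase SGK2 one of -0.27 (limma adjusted p = 0.164).

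**Figure D2:**
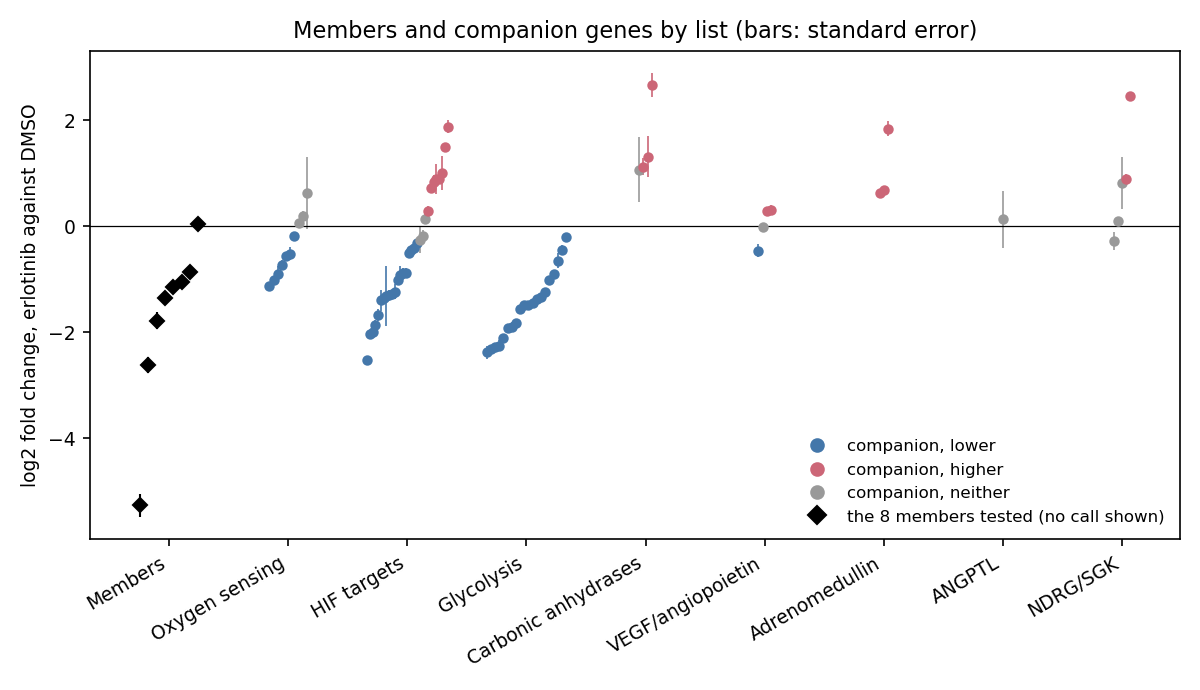
Log2 fold change of erlotinib against DMSO for the 8 tested members (black) and the tested companion genes of each list (blue lower, red higher, grey neither), with bars for the standard error. The glycolysis genes all lie below 0, while the 3 tested adrenomedullin companions lie above it. Of all tested genes, 35.4% were called lower and 35.3% higher.

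HIF1A, the oxygen-labile subunit itself, was among the most abundant of the 10 (Entrez 3091; chromosome 14, 61695513 to 61748258). Its signal was 9284, 9598 and 8720 in DMSO and 4276, 4410 and 4679 in erlotinib. Every erlotinib library was far under every DMSO library. The erlotinib mean of 4455 ± 205 was 48.4% of the 9201 ± 445 in DMSO (log2 fold change -1.05, SE 0.07). These are transcript levels, and HIF1A activity is set mainly by the stability of the protein, which was not measured here. The antisense RNA HIF1A-AS3 overlaps 77.7% of the HIF1A span on the opposite strand, and its reads cannot be told apart where strand is not used. EGLN3, the prolyl hydroxylase that HIF induces most strongly in many cells, was at 1757, 1653 and 1692 in DMSO and 643, 699 and 648 in erlotinib (Entrez 112399; chromosome 14, 33924227 to 33951074). The groups were again well apart, at 1701 ± 52.6 and 663 ± 30.9, so that erlotinib kept 39.0% of the DMSO level (log2 fold change -1.36, SE 0.08). The GENCODE span of SPTSSA overlaps 5.47% of the GENCODE span of EGLN3 on the same strand. The positions printed here and used for the nearest genes (Other observations) are those of RefSeq. They instead place SPTSSA 482 kb after EGLN3, so the overlap does not apply to the span printed here.

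The other parts of the oxygen-sensing machinery were tested as companions, and of 12 genes 10 were tested, 7 fell and 3 passed in neither direction, where 35.4% of all tested genes fell and 29.3% passed in neither. The median log2 fold change of the 10 was -0.54. Under scaling to the total count the split was 6 lower and 2 higher. EPAS1, the other main alpha subunit, was at 5206, 5125 and 5091 in DMSO and 2227, 2347 and 2504 in erlotinib (log2 fold change -1.12, SE 0.07, limma adjusted p = 5.05e-12). The hydroxylase EGLN1, the main oxygen sensor of most cells, was at 4651, 4197 and 4178 in DMSO and 2166, 2223 and 2048 in erlotinib (-1.02, SE 0.07, limma adjusted p = 5.17e-11). For EPAS1 and EGLN1 the groups did not overlap, as for HIF1A and EGLN3 and for 73.6% of all tested genes. The same held for ARNT, HIF1AN, VHL, ELOB, ELOC, CUL2 and RBX1. ARNT, the stable partner, was at 813 ± 39.4 and 928 ± 48.8 (0.19, limma adjusted p = 0.06). It passed the threshold as higher under scaling to the total count (0.37, limma adjusted p = 0.00124), with edgeR (adjusted p = 0.0418), with limma-voom (0.0420) and without DMSO library 2 (0.0148).

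The ubiquitin ligase that destroys the alpha subunits has VHL as its substrate receptor, with ELOB, ELOC, CUL2 and RBX1 around it. RBX1, the ring finger subunit, fell from 256 to 137 (log2 fold change -0.90, limma adjusted p = 1.62e-05). ELOC, an adaptor, fell from 4215 to 2540 (-0.73, limma adjusted p = 1.07e-07). The scaffold CUL2 fell from 1141 to 767 (-0.57, limma adjusted p = 9.04e-06). ELOB, the partner of ELOC, fell from 458 to 321 (-0.52, limma adjusted p = 5.48e-04), and SRRM2 overlaps 19.1% of its span on the opposite strand. VHL itself went from 2811 ± 193 to 2467 ± 118 (-0.19, limma adjusted p = 0.0274), a call that did not hold under scaling to the total count (-0.01, adjusted p = 0.928). It was also lost without DMSO library 1 and without erlotinib library 1 (adjusted p = 0.144 in both) and without erlotinib library 3 (0.0619). HIF1AN, the asparagine hydroxylase that blunts HIF activity, was at 2316 and 2420 (0.06, limma adjusted p = 0.412) and passed as higher under scaling to the total count (0.24). EGLN2 was near the lower limit at 9.79 and 12.6 (0.63, limma adjusted p = 0.418), and RAB4B-EGLN2, a readthrough gene listed at 0, covers 99.8% of its span. HIF3A was listed at 0 in all libraries and ARNT2 was too low to test.

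**Figure D3:**
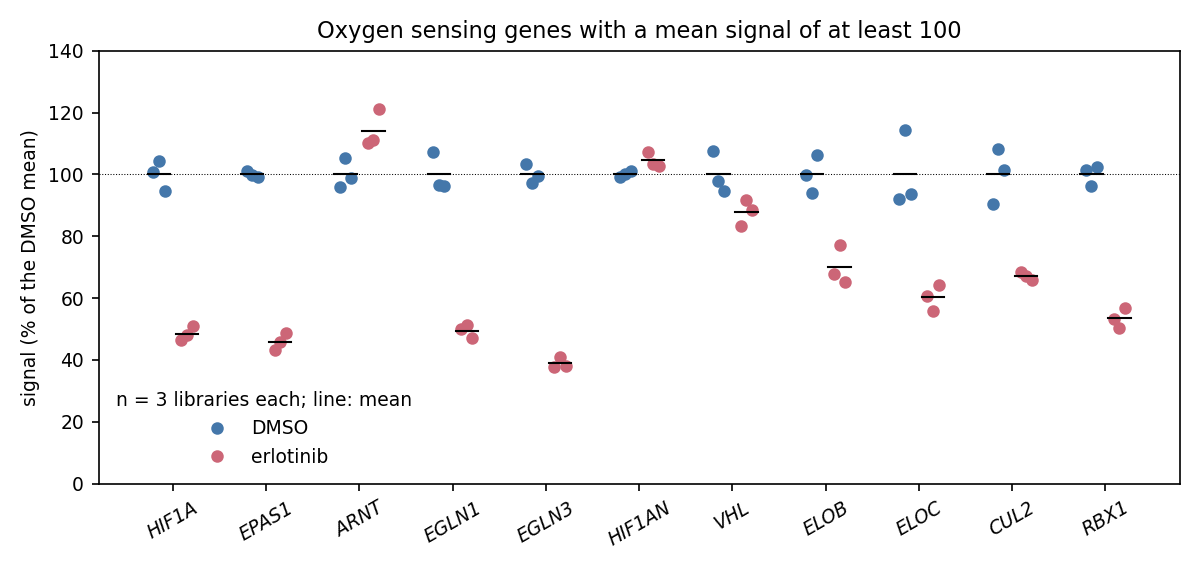
Signal of the oxygen-sensing genes with a mean of at least 100 as a percentage of the mean of DMSO, by library (n = 3 per group; lines are means). HIF1A, EPAS1, EGLN1 and EGLN3 in erlotinib lie at about or below the middle of the scale from 0 to 100, and ARNT and HIF1AN lie above 100.

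Genes compared per kb of their canonical GENCODE transcript kept much of their order. In DMSO the level was 2457 ± 23.6 signal per kb for STC2 and 2332 ± 113 for HIF1A, whose libraries overlapped, followed by VEGFA at 2069 ± 81.9. NDRG1 was at 1029 ± 68.8 and EGLN3 at 628.5 ± 19.4 per kb. ADM at 283 ± 36.7 and ANGPTL4 at 275 ± 28.3 overlapped, and STC1 followed at 158 ± 14.8. CA12 had 2.00 ± 1.78 per kb and CA9 was listed at 0. Among the tested genes with a canonical GENCODE transcript length, STC1 thus stood in the middle in DMSO, at percentile 46.9 of the level per kb, and at percentile 1.86 in erlotinib. In erlotinib the order was STC2 (1349 per kb), HIF1A (1129), NDRG1 (1055), VEGFA (935), EGLN3 (245), ADM (82.1), ANGPTL4 (44.2) and STC1 (3.93), with CA12 and CA9 last and the only neighbors in the order that overlapped. NDRG1 moved above VEGFA, since its own level differed little between the groups.

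Of 33 other genes known as HIF targets, 30 were tested, and 19 (63.3%) fell, 8 (26.7%) rose and 3 passed in neither direction, with a median of -0.69. Of all tested genes, 35.4% fell and 35.3% rose. Without erlotinib library 3 the number that rose was 5. TFRC, the transferrin receptor that brings iron into the cell, fell from 27581 to 4769 (log2 fold change -2.53, limma adjusted p = 2.84e-17). DDIT4, an inhibitor of mTOR, fell from 23093 to 5627 (-2.03, limma adjusted p = 3.59e-16). BHLHE40, a transcriptional repressor, fell from 5543 to 1387 (limma adjusted p = 1.91e-15). EDN1, the vasoconstrictor endothelin, rose from 221 to 814 (1.88, limma adjusted p = 1.55e-11). Of the genes past neither side, the histone demethylase KDM4B was at 945 and 1045 (0.14, limma adjusted p = 0.132), and passed as higher under scaling to the total count. The collagen hydroxylase subunit P4HA2 was at 745 and 658 (-0.18, limma adjusted p = 0.132), with a sign that turned under that scaling and a call as lower without DMSO library 2 (adjusted p = 0.0465).

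Genes of sugar uptake and glycolysis that respond to HIF fell as a list: of 21 genes 20 were tested and all 20 fell, 16 of them by at least 1 on the log2 scale (35.4% and 10.8% of all tested genes), with a median of -1.49. The phosphoglycerate mutase PGAM1 fell from 1352 to 256 (log2 fold change -2.38, limma adjusted p = 4.52e-13). Its signal in DMSO library 2 (1079) was under that in the other DMSO libraries (1552 and 1425), and without that library its log2 fold change was -2.53. The glucose transporter SLC2A1 fell from 13575 to 2712 (-2.32, limma adjusted p = 4.81e-17). PGAM1 and LDHA both have processed pseudogenes that could take some of their reads. LDHA, which turns pyruvate into lactate, fell from 40153 to 8253 (-2.28, limma adjusted p = 4.25e-17). PFKFB4, which sets the level of an activator of glycolysis, fell from 912 to 190 (-2.25, limma adjusted p = 1.46e-13), whereas its relative PFKFB3 had the smallest fall of the list (-0.19, limma adjusted p = 0.0115). The call of PFKFB3 was lost under scaling to the total count (-0.01, adjusted p = 0.842), without erlotinib library 1 (adjusted p = 0.0708) and without erlotinib library 3 (0.0560), so that 19 of the 20 were then called lower. Over all companion lists together, 77 of 112 genes were tested, 47 (61.0%) fell, 18 (23.4%) rose and 12 passed in neither direction, against 35.4% and 35.3% of all tested genes. These shares are descriptions, since the lists were written with results of these data known.

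The tested genes whose profile over the 6 libraries was nearest to that of STC1, by Euclidean distance of log2(signal + 1) centred on the mean of each gene, were CCAT1, FGFBP1, ETV1, ETV5 and DUSP6. CCAT1, a long noncoding RNA raised in many carcinomas, was nearest at a distance of 0.887 and went from 1143 to 32.1 (log2 fold change -5.14). FGFBP1, a secreted carrier of fibroblast growth factors, was at 0.997 and went from 1262 to 48.2 (-4.69). The ETS factors ETV1 (distance 1.12, 405 to 12.8) and ETV5 (1.21, 1327 to 67.6) and the ERK phosphatase DUSP6 (1.26, 1391 to 68.2) followed. With 3 libraries in each group, a gene of similar fold change is near by this measure. None of the 5 was in the list of HIF targets, but STC1 itself was not in that list either, so this sets no contrast between them.

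**Figure D4:**
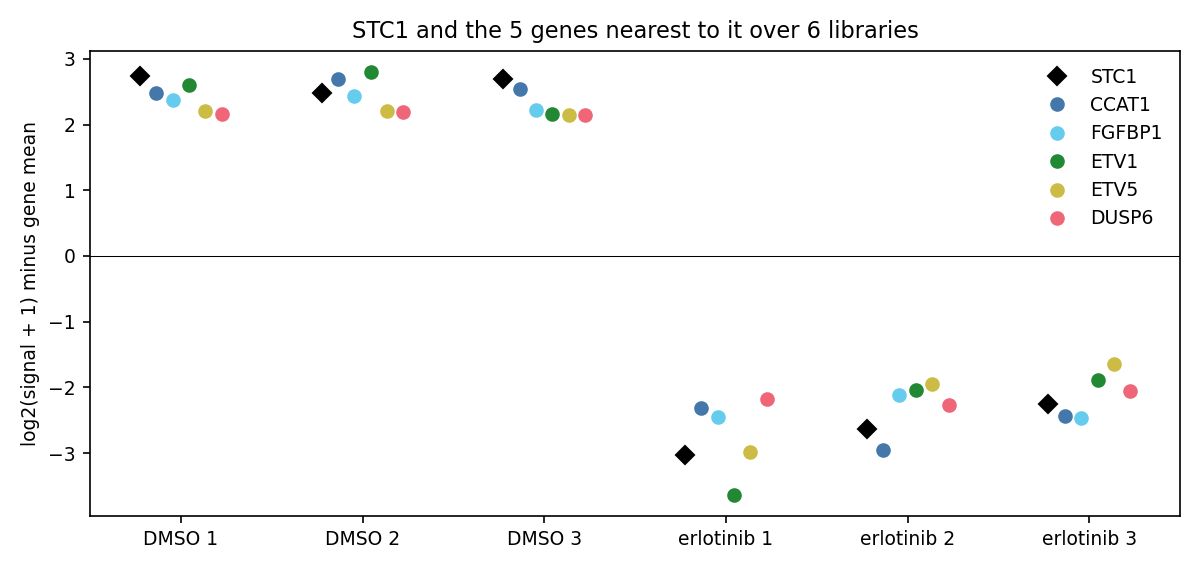
Log2(signal + 1) of STC1 (black diamonds) and of the 5 genes nearest to it, each minus the mean of that gene, in the 6 libraries. In each library the 6 genes lie on the same side of 0, above it in DMSO and below it in erlotinib.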

How the data were processed

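RNA from HCC827 cells was compared between DMSO and 1 μM erlotinib (3 libraries each, grouped by the label for treatment). Read pairs were aligned by the authors against GRCh38 using Bowtie2, which does not split reads over introns, and featureCounts gave the unique reads of each gene. Versions per the submitters' processing notes were Bowtie2 2.3.4, featureCounts 1.6.3 and DESeq2 1.18.1. The deposited values are signal, reads divided by a size factor for each library, as 100% of them are whole multiples of a step per library (tolerance 0.001 reads). The division and the strand counted were not given in the sources used here. Size factors computed by DESeq2 on the recovered reads had a ratio of 1 to those of the deposited values in all 6 libraries. The table lists 28395 genes, of which 475 have no symbol and are identified by Entrez number. Columns left out numbered 0. Erlotinib libraries are numbered in the order of their columns.

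Signal was tested with limma on log2(signal + 1) with a variance trend, two-sided, over the 14215 genes with a mean of at least 10, with Benjamini-Hochberg adjustment and a threshold of 0.05. Replicates differed beyond sampling noise (chi-square over degrees of freedom, 4.13 to 24.3, highest in the pairs with DMSO library 2). The floor of 3 reads covers counting error only, and reads without molecular identifiers are not independent molecules. The members and lists were chosen with earlier results of these data known. Named were the 10 members, the oxygen-sensing genes, in each other list up to 4 called companions with the largest fold change (no overlap between groups, mean at least 50) and up to 2 uncalled ones with the highest mean, the 5 genes nearest to STC1, and the cell type markers. CA14, PFKFB3, SBF1, SRRM2, SEC1P, MCPH1, FLT1, KDR, FLT4, ANGPT2, LPL, CALCRL, RAMP2, RAMP3, MIF and genes named by position were chosen after their values were seen. Alternatives were DESeq2, edgeR and limma-voom on the recovered reads, scaling to the total count, pseudocounts of 0.1 and 10, other filters, an adjusted p under 0.01, each library left out, and ACGTG alone in promoters. The scripts were tested on simulated data. Some single genes are not reported here. Transcripts of GENCODE release 44 were aligned to 261 alternate contigs with minimap2, and 0 of the 10 members had a copy there. Of the 145 transcripts aligned, 1 had a copy, that of the epithelial marker KRT18, whose unique reads may be affected. Python 3.11.15, with pandas 2.3.3 and matplotlib 3.10.9, handled tables and plots, minimap2 2.31-r1302 the alignments, and R 4.3.3 the tests, with DESeq2 1.42.0, edgeR 4.0.16 and limma 3.58.1.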

Additional observations from a re-analysis of the deposited data

How the results depend on the processing

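Scaling to the total count moved the median over the tested genes, on the log2 scale, from 0.02 to 0.19, and the calls from 5031 lower and 5012 higher to 3955 and 6156. With it the log2 fold changes were -1.18 for EGLN3, -0.87 for HIF1A, -2.45 for ANGPTL4, -0.69 for STC2, -0.97 for VEGFA and 0.22 for NDRG1, which was then called higher. Relative to the median of all genes, NDRG1 was at 0.02 under both scalings. A pseudocount of 10 put STC1 at -4.63, the smallest fall over its alternatives (-5.46 to -4.63). The number of oxygen-sensing genes called higher, 0 at first, was 1 with edgeR and TMM factors, 1 with limma-voom, 2 under scaling to the total count, and 0 to 1 with 1 library left out. Leaving out 1 library gave 5 to 8 HIF targets called higher (8 with all libraries) and 1 to 2 VEGF and angiopoietin genes called higher (2 with all). The sign turned for P4HA2 (0.00045) and NRP2 (0.16) under scaling to the total count, for NRP2 without erlotinib library 2, for NDRG1 without DMSO library 2 (-0.02), for EGLN2 without DMSO library 2 and for ANGPTL6 without erlotinib library 3. With each library left out, EGLN2 ranged from -0.16 to 1.03, NRP2 from -0.0498 to 0.00059, ANGPTL6 from -0.13 to 0.44, NDRG1 from -0.02 to 0.07 and CA13 from 0.31 to 1.66. ACGTG alone was in 2 member promoters, not 6. The causes were not tested. Every other alternative kept the group values within 1.5 times or 1 SD. Of the 35 companions that the naming rule gave, 24 kept their direction and side of the threshold under all alternatives and 11 did not. PFKFB3, named outside the rule, also lost its call. No paired analysis was possible because the erlotinib columns are numbered apart from the replicate numbers of the labels.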

Other observations

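Of the 20 nearest tested genes on either side of the 10 members by position, 10 fell, 8 rose and 2 passed in neither direction (limma, Benjamini-Hochberg), where 35.4% of all tested genes fell and 35.3% rose. The membrane metalloproteinase ADAM28, 439 kb after STC1, rose (log2 fold change 2.82, limma adjusted p = 3.90e-11). SBF2 lies 0.232 kb before ADM and rose by 0.42 (limma adjusted p = 0.0028). RAB11B-AS1 lies 6 bases after ANGPTL4 and rose by 2.04 (limma adjusted p = 3.71e-06). TPM2, a tropomyosin, lies 0.834 kb after CA9 and had a log2 fold change of 1.98.

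ARHGEF39 overlaps 26.8% of the CA9 span in GENCODE and fell from 417 to 111 (limma adjusted p = 2.79e-10). The positions used for the nearest genes, which are those of RefSeq, instead place it 8.73 kb before CA9. MIF, a cytokine that is usually abundant and is a HIF target, was listed at 0 in all 6 libraries. The protein-coding ENSG00000251357 overlaps 99.5% of its span on the same strand. MIF-AS1, also listed at 0, overlaps 94.9% of it on the opposite strand.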
